A study of Mus musculus with 9 samples.

Results

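Oligodendrocyte precursor genes were followed across the spinal cord libraries as a list of 10 genes taken by name: Pdgfra, Cspg4, Gpr17, Ptprz1, Sox6, Vcan, Neu4, Lhfpl3, C1ql1 and Cacng4. Of these, 9 were found among the 14831 genes of the deposited table, and all 9 were tested. Lhfpl3 matched no gene ID in the table and was not analysed here. The Ensembl IDs of the 9 genes are ENSMUSG00000029231 for Pdgfra, ENSMUSG00000032911 for Cspg4, ENSMUSG00000052229 for Gpr17, ENSMUSG00000068748 for Ptprz1, ENSMUSG00000051910 for Sox6, ENSMUSG00000021614 for Vcan, ENSMUSG00000034000 for Neu4, ENSMUSG00000045532 for C1ql1 and ENSMUSG00000020723 for Cacng4. The rule takes genes by symbol and uses no measured value. Even so, these genes and the further lists were chosen with earlier results of these data known.

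All animals were wild-type female C57Bl/6 mice, with an age of 10 weeks in the labels, and spinal cord was taken 2 weeks after an injection into a lateral ventricle of the brain. The groups were mice given an antisense oligonucleotide (ASO) against C9orf72 (500 µg, n = 3 libraries), mice given a control ASO (500 µg, n = 3) and mice given saline (10 µl, n = 3). An ASO is a short modified nucleic acid strand that pairs with a chosen RNA and lowers its level, and the study's stated question is what loss of C9orf72 function does in the mouse spinal cord. The values are RPKM, read numbers divided by transcript length and by library size, so that levels can be set side by side between genes. Since the labels name no animal for any library, each p-value speaks of the spread among these samples, which may be technical.

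The target was low in the labelled libraries. C9orf72 stood at 2.68, 3.40 and 3.12 RPKM after the C9orf72 ASO, against 11.2, 11.7 and 10.6 RPKM after the control ASO and 10.5, 11.4 and 11.5 RPKM after saline. Depth, as read from the step between low values, ran from 90.6 to 124 M reads, and a kilobase of transcript at 0.5 RPKM held 45.3 to 61.9 reads. Of the list of spinal cord position genes, all 8 were in the table, while 7 of 8 forebrain markers were not in it.

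Oligodendrocyte precursors are the dividing glial cells that give rise to the myelin-forming oligodendrocytes, and they persist in the adult spinal cord. They are recognised by the receptor for platelet-derived growth factor (Pdgfra) and by the proteoglycan NG2 (Cspg4), and platelet-derived growth factor from neurons and astrocytes drives their division. As a precursor commits to differentiate it loses Pdgfra and passes through a stage marked by the receptor Gpr17, before myelin genes are switched on. Several of the 9 genes are not limited to precursors: astrocytes also make Ptprz1, pericytes also make Cspg4, some neurons make Sox6, and fibroblasts of the meninges make Pdgfra and Vcan.

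None of the 9 genes passed a limma adjusted p under 0.05 in any comparison, where 0.00693% to 0.173% of all genes tested did. At an unadjusted p under 0.05, 0 to 3 of the 9 were lower and 0 higher. Of all genes tested, 3.98% to 10.9% were lower and 1.37% to 6.39% higher at that p. Gpr17 had the lowest fold change of the 9 after the C9orf72 ASO, at 72.4% of the control ASO mean, and its libraries lay below those of the control ASO without overlap, as did those of 11.8% of all genes tested. Pdgfra, the defining marker of precursors, stood at 98.1% of the control ASO mean. The 9 genes summed to 78.0 to 79.9 RPKM in the C9orf72 ASO libraries, against 82.6 to 84.2 RPKM in the control ASO libraries and 74.8 to 91.9 RPKM in the saline libraries. In bulk tissue, fewer cells of a type and less RNA per cell cannot be told apart.

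The levels of the 9 genes differed by an order of magnitude. Ptprz1 was the highest with a mean of 23.9 RPKM over the 9 libraries, which placed it at percentile 80.0 of the 14430 genes tested. Cspg4 was the lowest with 2.17 RPKM, at percentile 19.4. In between came Cacng4 (15.3 RPKM), Gpr17 (10.3 RPKM), C1ql1 (9.39 RPKM), Pdgfra (8.57 RPKM), Vcan (4.70 RPKM), Neu4 (4.34 RPKM) and Sox6 (3.02 RPKM), where the median gene tested had 7.96 RPKM. The order held in each of the 9 libraries between neighbours, except that Gpr17 was above C1ql1 in 6 of 9, C1ql1 above Pdgfra in 5 of 9 and Vcan above Neu4 in 6 of 9. None of the 9 genes was at the floor of the table, the value of 0.1 that stands for anything under 0.5 RPKM, in any library.

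**Figure D1:**
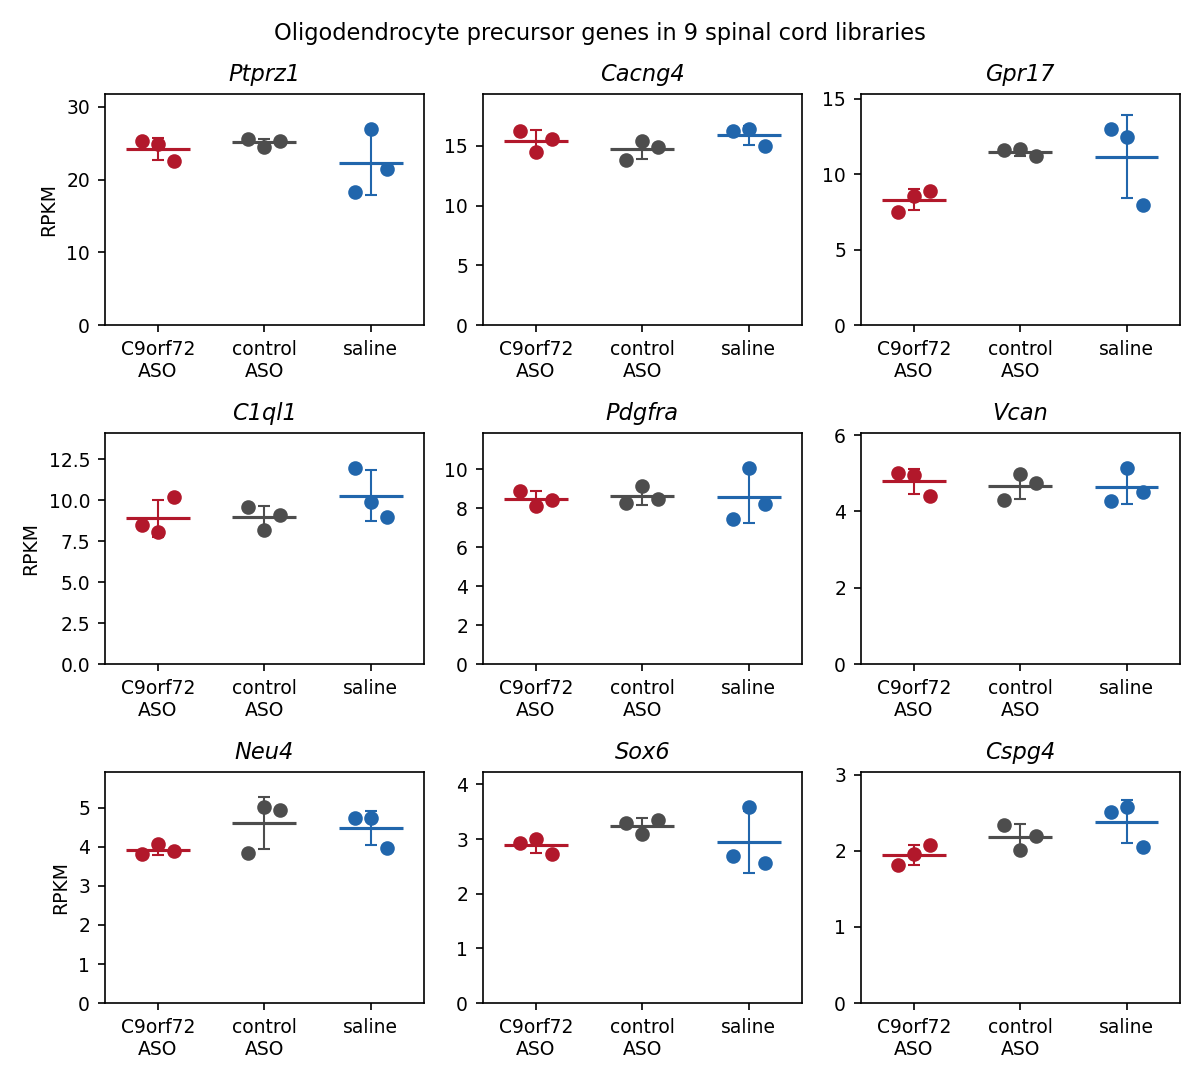
RPKM of the 9 precursor genes (vertical axes, each from 0) in the C9orf72 ASO, control ASO and saline libraries. Points are libraries, horizontal lines are means and bars are SD (n = 3). The C9orf72 ASO libraries of Gpr17 (7.51 to 8.88 RPKM) lie clear of the control ASO libraries (11.2 to 11.7 RPKM), as do those of Sox6 by a narrower gap (2.73 to 3.01 against 3.09 to 3.35 RPKM), while both overlap with saline.

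The regions around the transcription start are shown for 3 genes of surface proteins. These are Pdgfra and Cspg4, by which precursors are recognised, and Ptprz1, the most abundant member. Of the 10 genes, 7 had an entry in the RefSeq promoter table (GRCm38.p6), which holds 250 bases before to 50 bases after each start. The regions are chr5:75152001-75152300 for Pdgfra, chr6:22875252-22875551 for Ptprz1 and chr9:56864854-56865153 for Cspg4, all on the plus strand. Capitals mark matches to GGGCGG, the GC box, on either strand.
Pdgfra: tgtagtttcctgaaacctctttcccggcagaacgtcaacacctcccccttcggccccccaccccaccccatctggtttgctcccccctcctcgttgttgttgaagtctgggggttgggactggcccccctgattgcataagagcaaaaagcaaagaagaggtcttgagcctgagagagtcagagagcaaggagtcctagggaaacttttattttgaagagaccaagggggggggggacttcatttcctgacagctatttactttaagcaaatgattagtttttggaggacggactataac
Ptprz1: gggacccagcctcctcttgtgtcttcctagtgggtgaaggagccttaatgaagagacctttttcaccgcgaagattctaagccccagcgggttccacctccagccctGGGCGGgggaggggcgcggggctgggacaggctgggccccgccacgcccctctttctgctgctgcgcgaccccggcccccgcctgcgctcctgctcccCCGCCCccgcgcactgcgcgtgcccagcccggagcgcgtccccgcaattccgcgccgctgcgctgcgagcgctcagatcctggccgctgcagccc
Cspg4: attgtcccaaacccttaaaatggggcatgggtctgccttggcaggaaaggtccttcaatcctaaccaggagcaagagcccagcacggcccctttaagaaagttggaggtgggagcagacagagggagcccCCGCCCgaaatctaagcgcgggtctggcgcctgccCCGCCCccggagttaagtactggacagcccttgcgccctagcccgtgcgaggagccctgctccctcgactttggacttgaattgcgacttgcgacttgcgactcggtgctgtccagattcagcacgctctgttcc
The GC content of the windows was 51% for Pdgfra, 71.7% for Ptprz1 and 60% for Cspg4, with 5, 29 and 17 CpG dinucleotides. GGGCGG stood at -143 and -45 from the start in Ptprz1 and at -120 and -85 in Cspg4, and it is held by 35.7% of the 32851 promoters in the table. The Pdgfra window held no match to it. The other motifs were searched on both strands, and none was in the 3 windows. One was CAGCTG, the E-box, which 16.3% of promoters hold. Another was ACAAAG, of the SOX type, which 18.7% hold. The last was TATAAA, which 13.6% hold. No motif overlapped another. A match describes these letters and no binding was measured.

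Among the receptors, Pdgfra encodes the receptor tyrosine kinase for platelet-derived growth factor. It stood at 8.89, 8.13 and 8.40 RPKM after the C9orf72 ASO, against 8.29, 9.15 and 8.47 RPKM after the control ASO and 7.46, 10.1 and 8.23 RPKM after saline. The groups overlapped, and the lowest and the highest value were both in saline. The log2 fold change of the C9orf72 ASO over the control ASO was -0.03 (SE 0.10), with a 95% interval of the ratio from 0.848 to 1.14. Over saline it was -0.01 (SE 0.10), with a ratio from 0.859 to 1.15. The 9 markers of meningeal and perivascular fibroblasts, which also make Pdgfra, summed to 14.2 to 17.8 RPKM after the C9orf72 ASO, against 14.8 to 20.3 RPKM after the control ASO and 20.4 to 20.9 RPKM after saline. Of these 9, 4 were at the floor in at least 1 library, and the part of fibroblasts in the Pdgfra values was not tested.

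Gpr17, an orphan G protein-coupled receptor that marks precursors committed to differentiation, was the member with the lowest fold change. It stood at 7.51, 8.55 and 8.88 RPKM after the C9orf72 ASO (8.31 ± 0.718, SD, n = 3), against 11.6, 11.7 and 11.2 RPKM after the control ASO (11.5 ± 0.267) and 13.0, 12.5 and 7.99 RPKM after saline (11.2 ± 2.75). All C9orf72 ASO libraries lay below all control ASO libraries, whereas saline replicate 3 lay among the C9orf72 ASO libraries. The log2 fold change was -0.47 (SE 0.15) over the control ASO, with an unadjusted p of 0.00905 and a limma adjusted p of 0.254 over all genes tested. Over saline it was -0.39 (SE 0.15, limma adjusted p = 0.279). Over both control groups it was -0.43 (SE 0.13, limma adjusted p = 0.168). The call depended on the libraries in the fit. Without saline replicate 3 the log2 fold change was -0.61 over saline (limma adjusted p = 0.0301). Over both control groups it was then -0.54 (limma adjusted p = 0.0108), and over the control ASO the limma adjusted p was 0.0722. Without saline replicate 1 the log2 fold change over saline was -0.27. Without C9orf72 ASO replicate 1 it was -0.39 over the control ASO. The largest limma adjusted p of Gpr17 under any alternative was 0.637 over the control ASO, 0.615 over saline and 0.536 over both control groups.

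Gpr17 lies in the reference annotation (GENCODE vM21) across Lims2, a gene for a focal adhesion adaptor on the opposite strand, with 188 exonic bases in common. Lims2 stood at 4.71, 4.68 and 5.51 RPKM after the C9orf72 ASO, against 6.99, 5.93 and 6.65 RPKM after the control ASO and 7.65, 6.53 and 5.26 RPKM after saline. Like those of Gpr17, its C9orf72 ASO libraries lay below all control ASO libraries and saline replicate 3 was the lowest of its group, with a log2 fold change of -0.39 over the control ASO (SE 0.12, limma adjusted p = 0.254). The libraries were strand-specific, but whether the counting used the strand is not given in the sources used here, so that reads of the 2 genes may be mixed where they overlap. No other analysed member shared exonic bases with a gene of the table.

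Cspg4, the NG2 proteoglycan, was the lowest of the 9 genes. It stood at 1.81, 1.96 and 2.07 RPKM after the C9orf72 ASO, against 2.34, 2.00 and 2.19 RPKM after the control ASO and 2.5025, 2.58 and 2.05 RPKM after saline. C9orf72 ASO replicate 3 reached into both control groups. The log2 fold change was -0.15 over the control ASO (SE 0.10, limma adjusted p = 0.510) and -0.27 over saline (SE 0.10, unadjusted p = 0.0229, limma adjusted p = 0.280). With trends of transcript length and GC content removed within each library, it was 0.04 over the control ASO and -0.08 over saline.

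Cspg4 is also a pericyte gene, and the markers of pericytes and smooth muscle had their lowest sums in the same group. The 11 genes of that list summed to 43.2 to 48.8 RPKM after the C9orf72 ASO, against 47.9 to 62.4 RPKM after the control ASO and 63.7 to 83.7 RPKM after saline. Of the 10 tested, 8 were lower over saline at an unadjusted p under 0.05, where 10.2% of all genes were, and none passed the adjusted threshold. For the control ASO over saline, 5 of the 10 were lower at that p, where 3.98% of all genes were. Over the control ASO, the C9orf72 ASO group also had 5 of the 10 lower at that p, where 7.71% of all genes were. One of the 11 was at the floor in at least 1 library and none in all. The part of pericytes in the Cspg4 values was not tested.

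Ptprz1, a receptor tyrosine phosphatase that carries chondroitin sulfate, was the most abundant member. It stood at 25.3, 24.9 and 22.5 RPKM after the C9orf72 ASO, against 25.5, 24.5 and 25.3 RPKM after the control ASO and 18.3, 27.0 and 21.5 RPKM after saline. The C9orf72 ASO and control ASO libraries overlapped within a narrow range, and saline held both the lowest and the highest value. The log2 fold change was -0.05 (SE 0.11) over the control ASO and 0.14 (SE 0.11) over saline, with a ratio interval of 0.813 to 1.14 over the control ASO. The 12 astrocyte markers summed to 2425 to 2642 RPKM after the C9orf72 ASO, against 2441 to 2522 RPKM after the control ASO and 2286 to 2593 RPKM after saline, and none of them passed the threshold over the control ASO. The part of astrocytes in the Ptprz1 values was not tested.

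Of the other members, Sox6 encodes a transcription factor that holds precursors back from differentiation. It stood at 2.92, 3.01 and 2.73 RPKM after the C9orf72 ASO, against 3.29, 3.09 and 3.35 RPKM after the control ASO and 2.68, 3.59 and 2.56 RPKM after saline. The C9orf72 ASO libraries lay below all control ASO libraries, as did those of 11.8% of all genes tested, and within the saline range. The log2 fold change over the control ASO was -0.16 (SE 0.11, limma adjusted p = 0.520), and over saline it was -0.01 (SE 0.11). With trends of transcript length and GC content removed, it was -0.07 over the control ASO (limma adjusted p = 0.720).

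Neu4 encodes a sialidase, an enzyme that removes sialic acid from glycoproteins and glycolipids. It stood at 3.83, 4.06 and 3.88 RPKM after the C9orf72 ASO, against 3.85, 5.02 and 4.95 RPKM after the control ASO and 4.74, 4.74 and 3.98 RPKM after saline. In both control groups 1 library lay among the C9orf72 ASO libraries. The log2 fold change was -0.22 (SE 0.10, limma adjusted p = 0.377) over the control ASO and -0.18 (SE 0.10, limma adjusted p = 0.454) over saline.

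Vcan, the matrix proteoglycan versican, kept within 4.41 to 5.001 RPKM after the C9orf72 ASO, against 4.29 to 4.98 RPKM after the control ASO and 4.26 to 5.14 RPKM after saline. Cacng4, an auxiliary subunit of AMPA-type glutamate receptors, kept within 14.5 to 16.2 RPKM after the C9orf72 ASO, against 13.8 to 15.4 RPKM after the control ASO and 14.97 to 16.4 RPKM after saline. Their groups overlapped in each comparison, with log2 fold changes over the control ASO of 0.03 for Vcan (SE 0.09) and 0.07 for Cacng4 (SE 0.07). C1ql1, a secreted C1q-like protein, stood at 8.48, 8.05 and 10.2 RPKM after the C9orf72 ASO, against 9.60, 8.20 and 9.10 RPKM after the control ASO and 11.99, 9.89 and 8.99 RPKM after saline. Its log2 fold change was -0.01 (SE 0.11) over the control ASO and -0.20 (SE 0.11, limma adjusted p = 0.447) over saline.

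Read as a list over the control ASO, 0 of 9 genes passed the adjusted threshold, where 0.0693% of all genes tested did. At an unadjusted p under 0.05, 1 of 9 was lower and none higher, where 7.71% of all genes tested were lower and 6.39% higher. The libraries of 2 of 9 genes did not overlap, both lower in the C9orf72 ASO group, where 11.8% of all genes were lower and 10.1% higher in this way. The median log2 fold change was -0.05 for the 9 genes and -0.01 for all genes tested.

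Over saline, 0 of 9 passed, where 0.0693% of all genes did, and Gpr17 and Cspg4 were lower at an unadjusted p under 0.05. Of all genes, 10.2% were lower and 3.79% higher at that p. No member's libraries were apart, where those of 12.4% of all genes were apart and lower, and the median was -0.04 for the 9 genes and -0.03 for all genes. Over both control groups together, 0 of 9 passed, where 0.173% of all genes did, and 3 of 9 (Gpr17, Cspg4 and Neu4) were lower at an unadjusted p under 0.05, where 10.9% of all genes were lower and 5.87% higher. The C9orf72 ASO libraries are shared by these comparisons, and the control libraries by the last with each of the others, so that their values are not independent.

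The control ASO and saline groups were compared with each other as well. For the control ASO over saline, 0 of 9 passed, where 0.00693% of all genes did, and none had an unadjusted p under 0.05, where 3.98% of all genes were lower and 1.37% higher. Ptprz1 had the highest log2 fold change of the 9 at 0.19 (SE 0.11) and C1ql1 the lowest at -0.19 (SE 0.11), both with a limma adjusted p of 0.794. Gpr17 stood at 0.07 (SE 0.15).

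**Figure D2:**
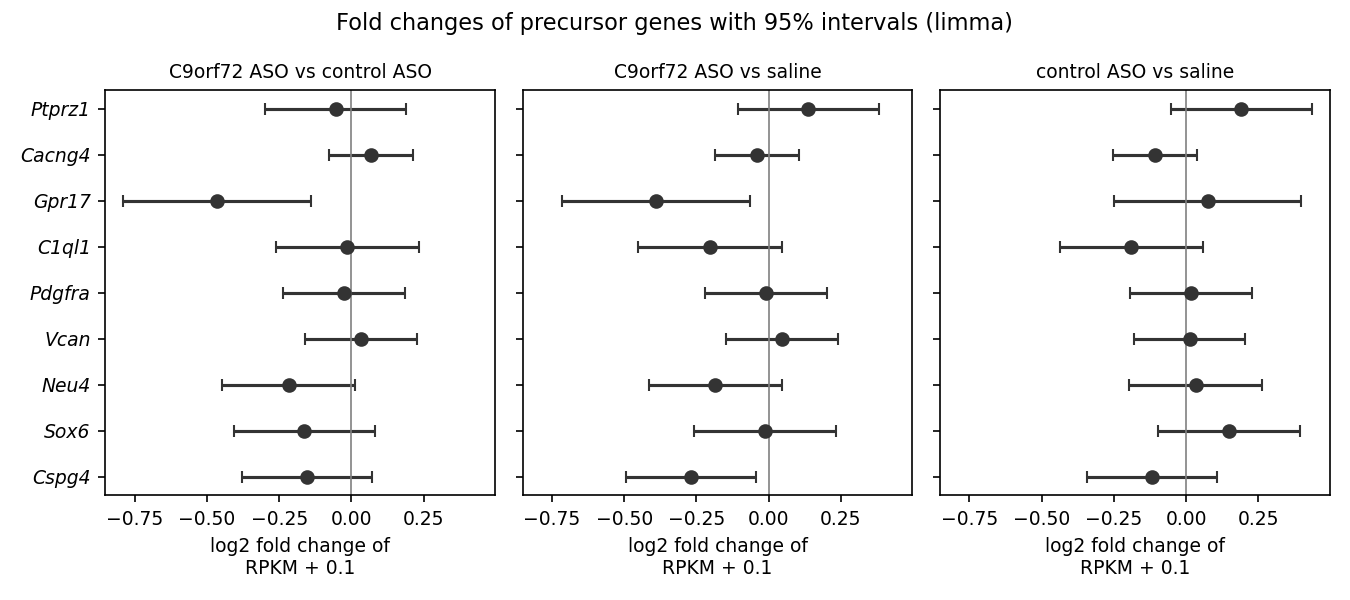
Log2 fold changes of RPKM + 0.1 (horizontal axes) for the 9 precursor genes with 95% intervals from limma, for the C9orf72 ASO over the control ASO, the C9orf72 ASO over saline and the control ASO over saline. The Gpr17 interval lies below 0 in both C9orf72 ASO panels (-0.47 and -0.39) and that of Cspg4 in the saline panel (-0.27), before adjustment over all genes tested.

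The SD was largest in the saline group for 7 of the 9 genes, in the control ASO group for Neu4 and in the C9orf72 ASO group for Cacng4. Saline replicate 2 lay above the 9-library mean in 9 of 9 genes and held the highest value of 6, while saline replicate 3 lay above it in 0 of 9. The SD of Gpr17 was 2.75 RPKM in saline, against 0.718 RPKM after the C9orf72 ASO and 0.267 RPKM after the control ASO. For Ptprz1 it was 4.39 RPKM in saline, against 1.48 RPKM after the C9orf72 ASO and 0.515 RPKM after the control ASO.

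Deviations of all genes differed between the libraries with transcript length and GC content. Among all genes, the quintile with the longest transcripts started at 5325 bases. Its median log2 deviation was -0.02, -0.03 and -0.08 in the C9orf72 ASO libraries and 0.04, 0.03 and 0.05 in the control ASO libraries. In saline replicates 1, 2 and 3 it was -0.05, 0.10 and -0.02. Pdgfra, Cspg4, Ptprz1, Sox6 and Vcan are in that quintile, with 6834 to 12427 bases. In the quintile with the highest GC content (from 55.5%), which holds Cspg4 (59.2%) and C1ql1 (65.8%), the median deviation was -0.12 and -0.13 in C9orf72 ASO replicates 1 and 2, 0.07 in replicate 3 and 0.15 in saline replicate 1. In those 4 libraries C1ql1 deviated by -0.13, -0.21, 0.13 and 0.36 and Cspg4 by -0.24, -0.13, -0.06 and 0.21, so that the sign of Cspg4 differed from that of the quintile in C9orf72 ASO replicate 3. The part of length and GC content in the members' values was not tested beyond the fit with both trends removed. In that fit Gpr17 was at -0.39 over the control ASO (limma adjusted p = 0.290), Neu4 at -0.19 and Sox6 at -0.07. The other members were above 0 there: Ptprz1 at 0.02, C1ql1 at 0.03, Cspg4 at 0.04, Pdgfra at 0.05, Cacng4 at 0.10 and Vcan at 0.13.

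**Figure D3:**
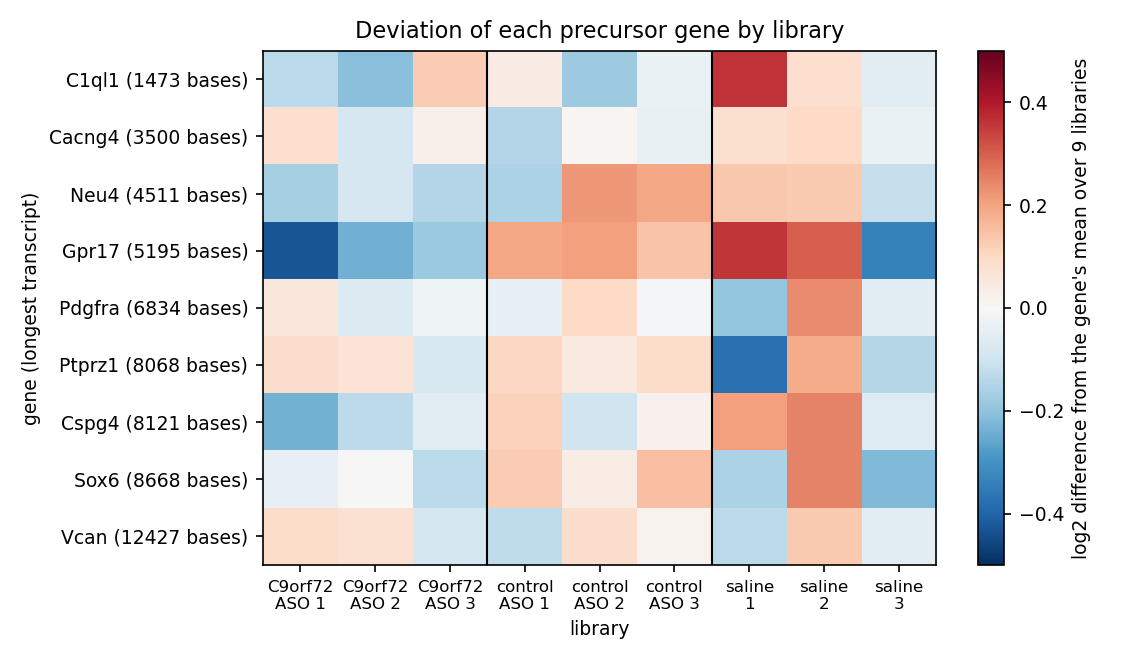
Log2 difference of each precursor gene from its own mean over the 9 libraries (colour scale), with genes ordered by the length of the longest transcript and libraries grouped as C9orf72 ASO, control ASO and saline. The column of saline replicate 2 is above 0 for all 9 genes and that of saline replicate 3 below 0 for all 9. Gpr17 runs from -0.43 in C9orf72 ASO replicate 1 to 0.36 in saline replicate 1.

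The 5 other genes whose log2 values followed the members' mean pattern most closely over the 9 libraries were Megf10 (Pearson r = 0.911), Mtr (0.906), Dgki (0.903), Plxdc2 (0.900) and Sema5a (0.899). The mean of the members' centred and scaled log2 values was 1.21 in saline replicate 2 and from -0.68 to 0.31 in the other libraries. Each of the 5 genes also had its highest value in saline replicate 2. These correlations are a description of 9 libraries that share depth and length trends.

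The stages before and after Gpr17 were described from further lists of lineage genes. Of 24 further precursor markers, none passed over the control ASO, 2 were higher and 2 lower at an unadjusted p under 0.05 (6.39% and 7.71% of all genes), and the median was -0.07. Those with the smallest p were Lims2, given above, and Scrg1 (log2 fold change 0.31, limma adjusted p = 0.257). Sapcd2, named after its values were seen, had the highest fold change at 1.08 (limma adjusted p = 0.324). Of its control ASO libraries, 2 held the floor value. Named after their values were seen, the lineage transcription factors Olig1, Olig2 and Sox10 stood at -0.07, -0.05 and -0.12, with limma adjusted p of 0.689, 0.784 and 0.689.

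For committed and newly formed oligodendrocytes, the stage that Gpr17 marks, 20 of 22 listed genes were in the table and none passed. Over the control ASO 7 were lower and 0 higher at an unadjusted p under 0.05, where 7.71% of all genes tested were lower and 6.39% higher. Of the 20, 10 had libraries apart and lower and 1 apart and higher, where 11.8% and 10.1% of all genes did, and the median was -0.12. Over saline 10 were lower and 0 higher at an unadjusted p, where 10.2% of all genes were lower and 3.79% higher, and the median was -0.16. Tcf7l2, a transcription factor of Wnt signalling that marks newly formed oligodendrocytes, stood at 1.80, 2.07 and 2.18 RPKM after the C9orf72 ASO, against 2.27, 2.85 and 2.74 RPKM after the control ASO and 2.65, 2.57 and 2.20 RPKM after saline. The C9orf72 ASO libraries lay below both control groups, with a log2 fold change of -0.36 over the control ASO (SE 0.11, limma adjusted p = 0.247). Mycl, a MYC family transcription factor, stood at 2.52, 2.60 and 2.56 RPKM after the C9orf72 ASO, against 2.83, 3.29 and 3.10 RPKM after the control ASO and 2.999, 3.22 and 2.65 RPKM after saline (log2 fold change over the control ASO -0.25, limma adjusted p = 0.267). Not all genes of this stage were low: Enpp6, a choline phosphodiesterase of newly formed oligodendrocytes named after its values were seen, stood at 0.05 over the control ASO (limma adjusted p = 0.797). The list was taken by name, and the part of other stages and cell types in its values was not tested. Nor was the part of length and GC trends in the counts of this list.

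Of 20 genes of myelinating oligodendrocytes, Tppp fell over the control ASO and no other passed. Tppp, a tubulin polymerisation promoting protein, stood at 336, 312 and 336 RPKM after the C9orf72 ASO, against 565, 540 and 552 RPKM after the control ASO and 581, 582 and 523 RPKM after saline. Its C9orf72 ASO libraries lay far below the others, with a log2 fold change of -0.75 over the control ASO (SE 0.07, limma adjusted p = 8.3e-04). The median of the 20 genes was 0.05 over the control ASO, -0.03 over saline and -0.10 for the control ASO over saline, so that its sign turned with the control group. The myelin gene Mbp, named after its values were seen, stood at 0.05 over the control ASO (limma adjusted p = 0.861).

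**Figure D4:**
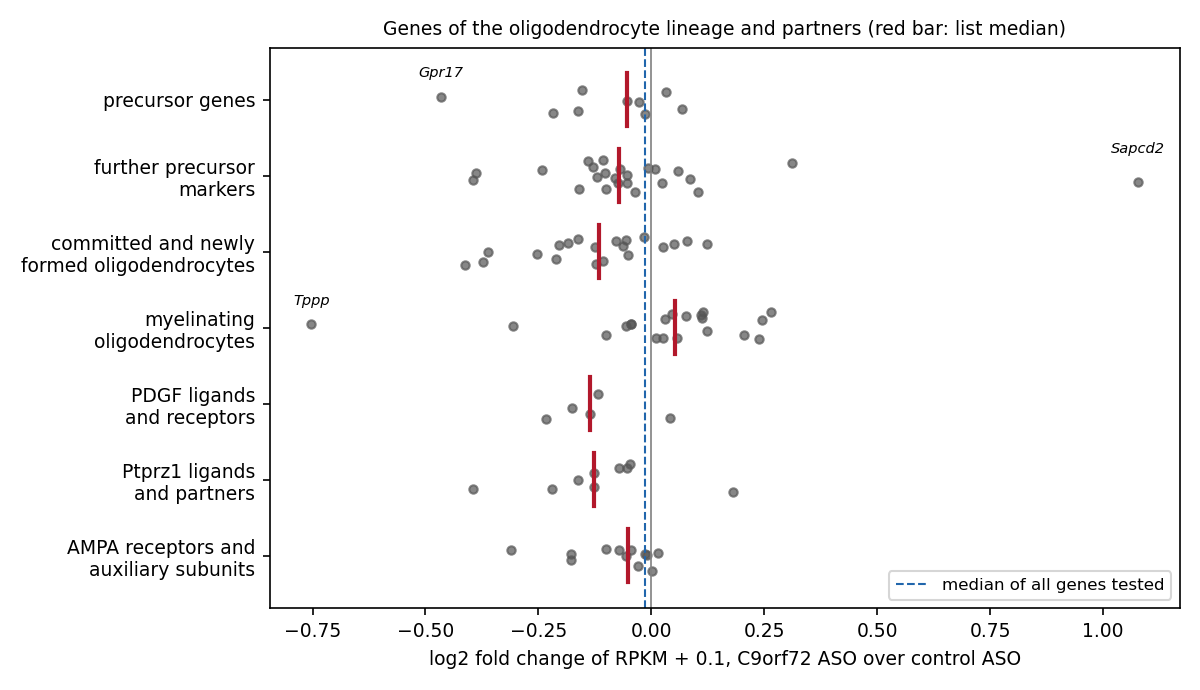
Log2 fold change of RPKM + 0.1 for the C9orf72 ASO over the control ASO (horizontal axis) of each tested gene in 7 lists, with the list median as a red bar and the median of all genes tested (-0.01) as a dashed line. The committed and newly formed oligodendrocyte list has a median of -0.12 and the myelinating list one of 0.05, with Tppp at -0.75.

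The partners of the members were read from lists too. Their counts at an unadjusted p stand against 7.71% of all genes tested that were lower and 6.39% that were higher over the control ASO. Some lists share genes with each other or with the lineage lists above (Tnr, Nfasc, Bcan and Cntn1 among them), so that their counts are not independent. Of the 5 ligands and receptors of platelet-derived growth factor, 0 passed and 0 had an unadjusted p under 0.05 over the control ASO, with Pdgfc at -0.18 and Pdgfb at -0.23. Pdgfb stood at 1.89, 1.79 and 1.95 RPKM after the C9orf72 ASO, against 2.48, 2.16 and 2.04 RPKM after the control ASO and 3.21, 2.54 and 2.21 RPKM after saline, so that the C9orf72 ASO libraries were the 3 lowest. Of 12 genes of signalling downstream of Pdgfra, 3 were lower at an unadjusted p, among them the phosphatase gene Ptpn11 (-0.21, limma adjusted p = 0.237) and the ubiquitin ligase gene Cbl (-0.29, limma adjusted p = 0.317).

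Of 9 ligands and partners of Ptprz1, 3 were lower at an unadjusted p over the control ASO, against 7.71% of all genes, and the median was -0.13. Ncam1, a neural adhesion molecule, stood at -0.13 (limma adjusted p = 0.315). The matrix protein gene Tnr stood at -0.39 (limma adjusted p = 0.316), and at 7.52, 7.93 and 6.62 RPKM after the C9orf72 ASO, against 10.3, 8.54 and 10.3 RPKM after the control ASO and 7.95, 12.1 and 7.04 RPKM after saline. Its C9orf72 ASO libraries lay below all control ASO libraries and overlapped with saline.

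Of 12 AMPA receptor genes and auxiliary subunits, the family of Cacng4, 2 were lower at an unadjusted p over the control ASO, against 7.71% of all genes. These were the auxiliary subunit genes Cacng7 (-0.31, limma adjusted p = 0.247) and Cacng8 (-0.18, limma adjusted p = 0.273), while Cacng4 stood at 0.07. Of 9 genes of sialidases and sialylation, beside Neu4, St8sia1 and St8sia2 were lower at an unadjusted p, with -0.25 (limma adjusted p = 0.257) and -0.19 (limma adjusted p = 0.345).

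Of 22 regulators of glial differentiation, read beside Sox6, 4 were lower and 0 higher at an unadjusted p over the control ASO, against 7.71% and 6.39% of all genes, and the median was -0.07. The transcription factor genes Sox11 and Sox4 stood at -0.46 (limma adjusted p = 0.273) and -0.26 (limma adjusted p = 0.277). Of 15 chondroitin sulfate proteoglycans and matrix partners in the table, read beside Vcan and Cspg4, 3 were lower and 0 higher at an unadjusted p and the median was -0.13. The neurocan gene Ncan stood at -0.30 (limma adjusted p = 0.199), and Hapln4, a link protein gene, at -0.17 (limma adjusted p = 0.314). Of 5 C1q-like genes and receptors, read beside C1ql1, none had an unadjusted p under 0.05, with C1ql3 at -0.22 and Cbln2 at -0.13. None of the genes in these 3 lists passed the adjusted threshold over the control ASO.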

How the data were processed

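Strand-specific RNA-seq libraries of mouse spinal cord (9, in 3 groups of 3) were taken from 1 deposited table of 14831 genes. The submitters' processing notes name cutadapt 1.2.1, GSNAP and the build mm9, and the sources used here give neither counter nor annotation. The authors deposited values taken here as RPKM: the header names no unit and it was read from the values. For RNA genes up to 350 bases, 68.0% to 77.5% of values lay within 0.1 of a whole read once the step was fitted. The authors' table holds 0.1 in place of any RPKM under 0.5 (5160 values). No 2 libraries had identical values. Symbols came from a reference table for 14321 genes, leaving 510 without.

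Differences were tested with limma 3.58.1 (R 4.3.3, statmod 1.5.0; mean trend, robust) on log2(RPKM + 0.1) in 1 fit of 9 libraries, over the 14430 genes that reached 0.5 RPKM in 3 or more libraries (401 removed). Benjamini-Hochberg adjustment ran over all genes tested, with a threshold of 0.05. The pseudocount makes fold changes understate those of low genes. The fit was run on simulated data with independent noise for each gene. That simulation held no length or GC trends, so it cannot show how the fit behaves under them. The 10 genes and the further lists were chosen with earlier results of these data known. Named were all members, the target, and from each list the genes past the threshold in any comparison or else the 2 with the smallest p over the control ASO. Added were the 5 genes most correlated with the members. Others are marked as named after their values were seen. Alternatives covered moderation, samples in the fit, filters, pseudocount, floor values, scaling, length and GC trends, and each library left out. Transcript lengths and GC content (GENCODE vM21, longest transcript) and promoter sequences (RefSeq) are of GRCm38, and the authors used mm9.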

Additional observations from a re-analysis of the deposited data

How the results depend on the processing

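Across all alternatives the 9 precursor genes gave 711 fold changes, of which 2 passed the threshold, both of Gpr17 without saline replicate 3. The direction of 47 changed, none in a value that passed the threshold under either setting; a change of direction was counted as a reversal only where it did. Over the control ASO these were C1ql1, Cspg4, Pdgfra, Ptprz1 and Vcan, each with a main fold change between -0.15 and 0.03. Genes called over the control ASO were 10, and 19 without trend and robust estimation, 16 without a filter and 17 with length and GC trends removed. Over saline they were 10, and 4 with the compared groups alone and 23 with the trends removed. Over both control groups they were 25, and 39 with a mean of at least 1 RPKM, 39 with no library at the floor and 40 with the trends removed. For the control ASO over saline they were 1, and 9 without trend and robust estimation, 5 without a filter, 0 with a mean of at least 1 RPKM, 0 with no library at the floor and 3 with the trends removed. The causes were not tested. With each library left out, genes called ranged from 7 to 27 over the control ASO, 4 to 54 over saline, 7 to 139 over both and 0 to 2 for the control ASO over saline. Members called ranged from 0 to 1 over saline and over both control groups, and were 0 in the other comparisons. The counts of 27, 54 and 139 came without C9orf72 ASO replicate 3. Over saline the count was 4 without C9orf72 ASO replicate 1, C9orf72 ASO replicate 2 or saline replicate 2, and 16 without control ASO replicate 3. Over both control groups, leaving out saline replicate 2 gave 9, control ASO replicate 1 gave 13 and C9orf72 ASO replicate 1 gave 7. For the control ASO over saline it was 0 without any 1 control ASO library and 2 without saline replicate 1. The medians of the 9 genes moved by less than the spread between replicates (SD 0.09 of the members' mean log2 value) under every alternative run. That spread is as large as the medians themselves, so their sign can turn within it. With length and GC trends removed the median was 0.03 over the control ASO and 0.003 over saline, where the main fit gave -0.05 and -0.04. The fit of the compared groups alone is the main fit for both control groups, so it gives no further value there. No paired analysis was run, because nothing in the labels pairs libraries of different groups. Replicate numbers used here count the libraries of each group in the order of their samples. At 45.3 reads per kilobase or more, 0.5 RPKM is the floor of the table, and lower values of precursor genes cannot be read.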

Other observations

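Precursors divide, and genes of cell division were read beside them. Top2a, a topoisomerase of dividing cells, stood at the floor in all 3 C9orf72 ASO libraries and all 3 saline libraries, against 0.550, 0.661 and 0.707 RPKM in the control ASO libraries. It did not pass over the control ASO (limma adjusted p = 0.200), and a library at the floor may hold any value under 0.5 RPKM. Of the 12 cell division genes tested, the median log2 fold change over the control ASO was -0.02.

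Microglial markers, a cell type outside the oligodendrocyte lineage, had higher sums in the C9orf72 ASO libraries. The 9 genes in the table summed to 206 to 220 RPKM after the C9orf72 ASO, against 163 to 177 RPKM after the control ASO and 160 to 183 RPKM after saline. Tyrobp, an adaptor of microglial receptors, rose over saline (log2 fold change 0.68, limma adjusted p = 0.0310) and over both control groups. C1qb, a complement subunit, rose over both control groups (0.46, limma adjusted p = 0.0402) and did not pass over saline (limma adjusted p = 0.0929). Neither passed over the control ASO (limma adjusted p = 0.0905 for each). There 6 of the 9 were higher at an unadjusted p under 0.05, where 6.39% of all genes were. Endothelial markers summed to 63.1 to 70.4 RPKM after the C9orf72 ASO, against 61.8 to 78.3 RPKM after the control ASO and 78.3 to 93.4 RPKM after saline. Of the 8, 7 were lower over saline at an unadjusted p under 0.05, where 10.2% of all genes were, and none passed the adjusted threshold. For the control ASO over saline, 3 of the 8 were lower at that p, where 3.98% of all genes were. Over the control ASO, the C9orf72 ASO group also had 3 of the 8 lower at that p, where 7.71% of all genes were.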
